A study of Canis lupus familiaris with 10 samples.

Results

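BAMBI and THBS1 are modulators of transforming growth factor beta (TGF-beta) signaling whose transcripts were followed in canine visceral adipose tissue (VAT), as 2 of the 13577 genes tested and of the 19856 genes listed in the count tables. BAMBI (ENSCAFG00000030262) encodes BMP and activin membrane bound inhibitor, and THBS1 (ENSCAFG00000008704) encodes thrombospondin 1. Both were chosen because they were higher after treatment in these samples, so their levels and ratios between the time points are given as a description, without a test. VAT of 5 adult Beagle dogs (3 males and 2 females) was collected by laparotomy before treatment (Pre-ACTH, week 0) and again from the same animals at week 25 of continuous tetracosactide (Post-ACTH), a synthetic ACTH analog that drives the release of the dog's own cortisol, and RNA was sequenced from all 10 samples. Osmotic pumps under the skin, exchanged every 4 weeks, delivered 1.3 to 1.95 μg/kg/day at the start and 6 to 10 μg/kg/day at the end. No sham-treated dogs were included among the samples, so treatment, elapsed time and the repeated laparotomy cannot be told apart. Dogs are numbered 1 to 5 by animal ID, and dogs 2 and 3 are the females.

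TGF-beta is secreted as a latent complex that is held in the extracellular matrix by binding proteins and has to be released before it can act. Thrombospondin 1, a large matrix glycoprotein also stored in platelets, is a known activator of this latent form. The free ligand brings together type I and type II receptor kinases, which phosphorylate SMAD proteins, and BAMBI resembles a type I receptor without the kinase, so that it occupies receptor complexes and blocks the signal. The molecules thus stand on opposite sides of the same pathway, which in adipose tissue is known for driving fibrosis and restraining adipocyte differentiation.

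Libraries held 8728330 to 14867529 counted reads in Pre-ACTH and 12314258 to 14589329 in Post-ACTH, and the smallest was the Pre-ACTH library of dog 3. Normalized counts are reads divided by the library size scaled with edgeR's TMM factors and multiplied by the mean library size. Gene symbols came from the study's table of differentially expressed genes, which names 1079 of the 13577 tested genes (7.95%), so a gene outside that table could not be followed by name. Of 12 adipocyte markers only LIPE, the hormone-sensitive lipase, carries a symbol, at 22361 ± 2352 normalized counts in Pre-ACTH and 31020 ± 2167 in Post-ACTH (SD, n = 5), and the tissue label could not be checked further.

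BAMBI, the receptor-level inhibitor, averaged 47.5 ± 31.1 normalized counts in Pre-ACTH and 298 ± 155 in Post-ACTH (SD, n = 5 dogs each). In Pre-ACTH it stood at 45.3 normalized counts in dog 1, 7.75 in dog 2, 35.2 in dog 3, 92.7 in dog 4 and 56.4 in dog 5. In Post-ACTH the same dogs reached 243, 62.2, 341, 469 and 377. Dog 2 was lowest and dog 4 highest at both time points, and dog 5 was second at both. The Post-ACTH level of dog 2 lay below the Pre-ACTH level of dog 4, so the groups overlapped although every dog was higher after treatment. Groups with all Post-ACTH values above all Pre-ACTH values were found for 4.30% of the tested genes.

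The fitted log2 fold change of BAMBI was 2.70 (SE 0.16), a 6.49-fold difference. Within dogs, the log2 ratio of Post-ACTH over Pre-ACTH was 2.37 in dog 1, 2.72 in dog 2, 3.20 in dog 3, 2.31 in dog 4 and 2.70 in dog 5 (log2 CPM, reads per scaled library size, with a prior count of 2). The levels thus differed 9.71-fold between dogs in Pre-ACTH and 7.33-fold in Post-ACTH, but the ratios differed only 1.85-fold from the lowest to the highest dog. A log2 ratio above 0 in all 5 dogs was found for 13.4% of the tested genes, among them BAMBI and THBS1.

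THBS1, the activator of latent TGF-beta, averaged 3196 ± 2226 normalized counts in Pre-ACTH and 14648 ± 8955 in Post-ACTH (SD, n = 5). Its Pre-ACTH levels were 2077 in dog 1, 3061 in dog 2, 7074 in dog 3, 1705 in dog 4 and 2064 in dog 5. After treatment they were 6049, 27818, 9201, 19741 and 10431. Dog 3 stood above the other dogs before treatment and below dogs 2, 4 and 5 after it, while dog 4 moved from the lowest to the second place. The Post-ACTH level of dog 1 lay below the Pre-ACTH level of dog 3, so these groups overlapped as well. In bulk tissue, a change in the number of cells that express a gene and a change in the RNA per cell cannot be told apart.

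**Figure D1:**
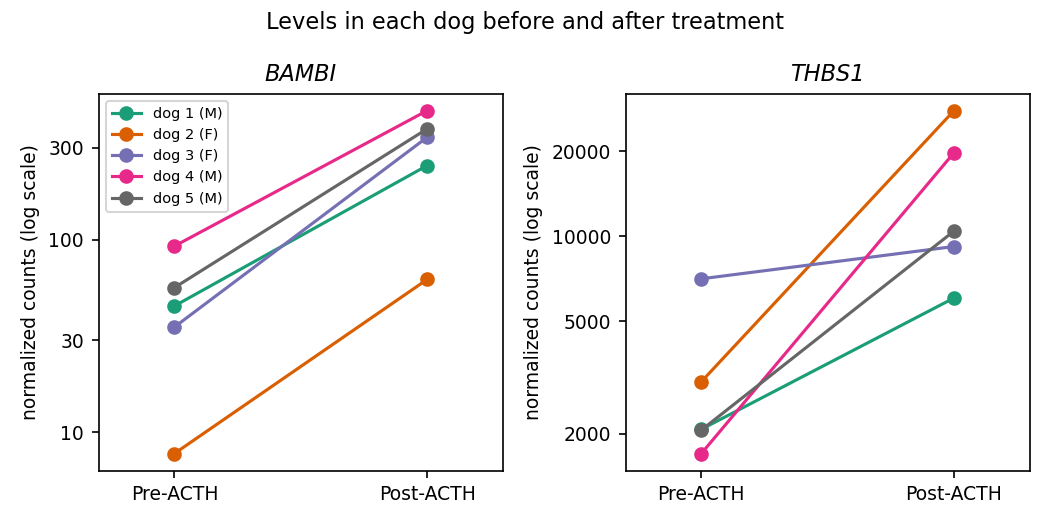
Normalized counts (log axis) of BAMBI (left) and THBS1 (right) in Pre-ACTH and Post-ACTH, with 1 line per dog and the sex in the legend. The BAMBI lines run nearly parallel, from 7.75 to 62.2 in dog 2 and from 92.7 to 469 in dog 4, whereas the THBS1 lines cross, with dog 3 at 7074 and 9201.

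For THBS1 the fitted log2 fold change was 2.22 (SE 0.45), a 4.64-fold difference. The within-dog log2 ratio was 1.54 in dog 1, 3.18 in dog 2, 0.38 in dog 3, 3.53 in dog 4 and 2.34 in dog 5. In linear terms THBS1 was 1.30-fold higher in dog 3 and 11.6-fold higher in dog 4, so the ratios themselves differed 8.89-fold between dogs. In normalized counts the gain ran from 2127 in dog 3 to 24757 in dog 2.

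The change of BAMBI was more even over the dogs than that of THBS1. The SD of the 5 within-dog log2 ratios was 0.35 for BAMBI and 1.28 for THBS1, a 3.60-fold difference, while the median SD over all tested genes was 0.31. The difference between the SDs lay between 3.26-fold and 4.21-fold when each dog was left out. Over all tested genes, 57.0% had a smaller SD than BAMBI and 95.8% a smaller SD than THBS1, but most genes changed little. Among the 39 genes with a mean log2 ratio of at least 2 and at least 1 CPM on average, no gene had a smaller SD than BAMBI, and 25 had a smaller one than THBS1. Without dog 1, dog 2, dog 4 or dog 5, 1 such gene had a smaller SD than BAMBI (CLEC4G, CLVS2, FIBIN and the gene with the identifier ENSCAFG00000008888, in this order of the dogs). These ranks describe the values by which the genes were chosen and carry no test.

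The depth behind these ratios differed. BAMBI rested on 8 to 80 reads per Pre-ACTH library and 65 to 503 per Post-ACTH library, and THBS1 on 1471 to 5022 and 5626 to 29072. Without a prior count, the SD of the 5 log2 ratios of BAMBI was 0.39, and counting error alone would give 0.32. The latter rests on dog 2, with 8 reads in Pre-ACTH, and without this dog the values were 0.42 and 0.23. For THBS1 the SD was 1.28, against 0.03 from counting error. With 95% intervals from counting (exact Clopper-Pearson intervals on the reads of each pair, without a prior count), the log2 ratio of BAMBI lay between 1.94 and 4.28 in dog 2 and between 2.00 and 2.70 in dog 4. The ratios of BAMBI differed by more than 2 times their counting SE in 2 of 10 pairs of dogs. Dog 3 exceeded dog 4 by 0.94 (counting SE 0.34) and dog 1 by 0.85 (counting SE 0.38) on the log2 scale, although the intervals of single dogs overlapped in all pairs. For THBS1 all 10 pairs differed by at least 7.37 times their counting SE, and the intervals overlapped in none, with 0.33 to 0.43 in dog 3 and 3.46 to 3.61 in dog 4. The intervals cover counting error only, and the reads carry no molecular identifiers. Each dog gave a single library per time point, so a difference between dogs cannot be told apart from one between single biopsies.

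**Figure D2:**
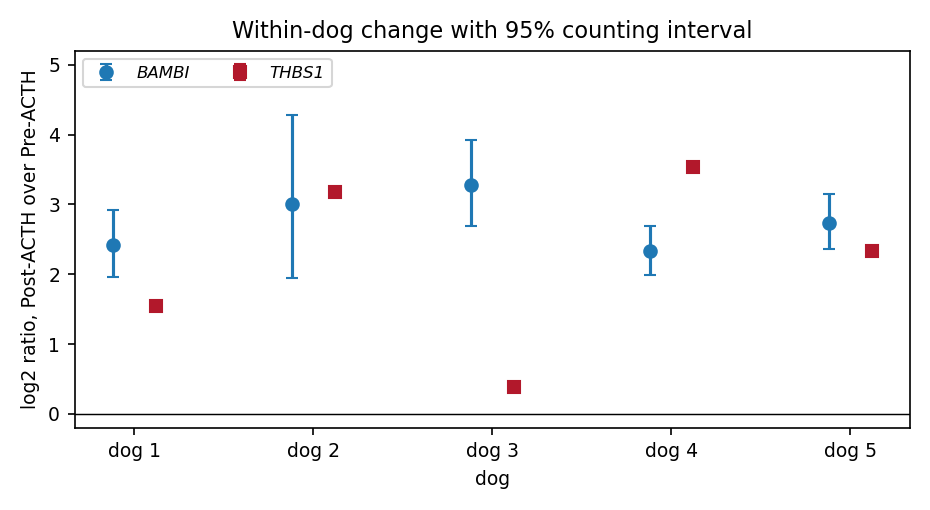
Log2 ratio of Post-ACTH over Pre-ACTH in each dog for BAMBI (circles) and THBS1 (squares), without a prior count; bars are 95% intervals from counting error and are smaller than the symbols for THBS1. The BAMBI intervals overlap between dogs, while THBS1 spans 0.38 in dog 3 to 3.53 in dog 4.

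The dogs with the largest changes were not the same for both genes. Dog 3 had the highest log2 ratio of BAMBI and the lowest of THBS1, and dog 4 the lowest of BAMBI and the highest of THBS1, while dogs 1, 2 and 5 held the same rank in both. For BAMBI the gap between dogs 3 and 4 was the largest of the 10 pairs of dogs, at 2.72 times its counting SE. It was picked by its size, so this order is not called resolved. Other ranks of BAMBI lay within counting error. Without a prior count, dog 2 minus dog 3 was -0.27 (counting SE 0.62) and dog 1 minus dog 4 was 0.09 (counting SE 0.29). THBS1 minus BAMBI was -2.82 in dog 3 and 1.22 in dog 4 on the log2 scale, and averaged -0.47 ± 1.53 (SD, n = 5), so the mean sizes of the changes differed by less than the spread between dogs. BAMBI changed more in 3 dogs and THBS1 in 2. Across the 10 samples the log2 CPM of BAMBI and THBS1 had a Pearson r of 0.48 and a Spearman rho of 0.48, a description that includes the difference between the time points.

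Sex did not enter the choice of the genes. The contrast between the sexes splits the same 5 within-dog changes that are described above, so it is not independent of them. The log2 ratio of BAMBI averaged 2.96 in the 2 females and 2.46 in the 3 males, a fitted difference of 0.67 (SE 0.27, unadjusted p = 0.0457, adjusted p = 1 in edgeR's quasi-likelihood test of the sex by treatment term). For THBS1 the averages were 1.78 and 2.47, a difference of -0.68 (SE 0.94, adjusted p = 1, same test), and without dog 3 its sign turned to 0.70. Neither difference passed FDR under 0.01. This test called 0 of 13577 genes (0%), with 435 genes at an unadjusted p under 0.05, while DESeq2 called 5 genes and limma-voom 0.

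The other genes of the pathway were taken from a list of 130 ligands, binding proteins, activators, receptors, SMADs, antagonists and response genes, of which 24 carry a symbol here. Of these 24, 2 were higher and 6 lower in Post-ACTH at FDR under 0.01 (edgeR's quasi-likelihood test, blocked by dog), against 0.751% and 1.22% of all tested genes (1.97% in either direction). At FDR under 0.05 these counts were 5 and 16, against 4.84% and 6.28% of all tested genes. A gene carries a symbol only because the study had found it changed in these samples, so these shares are set by the selection. The median log2 fold change of the 24 genes was -0.93, and that of all tested genes -0.0021. DESeq2, the tool on which the table of symbols rests, called all 24, 8 higher and 16 lower, against 3.68% and 5.02% of all tested genes, and leaving out dog 2 or dog 3 left 0 called by edgeR. None of the 13 receptors, 8 SMADs, 11 SMAD coregulators and 16 BMP and activin ligands in the list carries a symbol, and neither do TGFB1, TGFB2, TGFBR1, TGFBR2 and TGFBR3.

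Among the ligands, TGFB3, a TGF-beta isoform, averaged 181 ± 66.5 normalized counts in Pre-ACTH and 40.5 ± 24.4 in Post-ACTH (SD, n = 5). It fell by 2.24 on the log2 scale (SE 0.34), with an adjusted p of 0.00953 in edgeR's quasi-likelihood test, a call that was lost without any of dogs 2 to 5 (adjusted p of 0.0235 to 0.0482) and with a filter of 10 reads in 5 samples (0.0101). Its Pre-ACTH values lay between 104 and 272 and its Post-ACTH values between 15.8 and 80.6, without overlap, which held for 4.74% of all tested genes in this direction. Its log2 ratio was -0.68 in dog 1 and lay from -2.98 to -2.27 in the remaining dogs.

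Of 13 listed genes for proteins that bind latent TGF-beta or anchor it in the matrix, or belong to their families, 6 carry a symbol. Of these 6, 2 fell at FDR under 0.01, none rose and 4 did not pass. Among all tested genes, 1.22% fell and 0.751% rose at this threshold. At FDR under 0.05, 5 of the 6 were lower and 0 higher, against 6.28% and 4.84% of all tested genes. These shares, too, are set by the selection of genes with a symbol. LTBP1, a latent TGF-beta binding protein, averaged 416 ± 101 normalized counts before treatment and 169 ± 23.4 after it, and fell by 1.29 on the log2 scale (SE 0.12, adjusted p = 0.00267), with ratios from -1.56 to -0.87 in single dogs, and missed the threshold without dog 2 (adjusted p = 0.0183) or dog 3 (0.0145). FMOD (fibromodulin), a small proteoglycan of collagen fibrils, averaged 33.4 ± 6.39 before treatment and 4.25 ± 2.23 after it, and fell by 2.99 on the log2 scale (SE 0.40, adjusted p = 0.00712, lost when any dog was left out). DCN (decorin), a proteoglycan that binds TGF-beta, missed the threshold at -1.23 (SE 0.20, adjusted p = 0.0120, same test). LTBP2, which belongs to the LTBP family without being known to bind latent TGF-beta, stood at 1.07 on the log2 scale (SE 0.37, adjusted p = 0.107), with -0.55 in dog 1 and 0.94 to 2.52 in the others.

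Among the other activators of latent TGF-beta, 1 of 5 with a symbol passed the test at FDR under 0.01, and it fell, against 1.22% of all tested genes. This share, too, is set by the selection of genes with a symbol. PLAU, the urokinase that generates plasmin, averaged 244 ± 51.8 normalized counts before treatment and 99.2 ± 16.4 after it, and fell by 1.29 on the log2 scale (SE 0.15, adjusted p = 0.00424 in edgeR's quasi-likelihood test). This call was lost without dog 2, dog 3 or dog 5 (adjusted p of 0.0191 to 0.0217 in that test). BMP1, a protease that cleaves procollagens and LTBP1, showed 1.06 (SE 0.29, adjusted p = 0.0573), with -0.46 in dog 1 and 1.15 to 1.57 in the others. At FDR under 0.05, which BMP1 did not pass, 3 of the 5 were lower and 1 was higher, against 6.28% and 4.84% of all tested genes. THBS1 was thus higher by description in the same samples in which PLAU fell.

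Beside BAMBI, only ZFYVE9 carries a symbol among 11 other receptor-level inhibitors and adaptors. ZFYVE9, also known as SARA, presents SMADs to the receptor, and it stood at -0.42 on the log2 scale (SE 0.09, adjusted p = 0.0271 in edgeR's quasi-likelihood test). The extracellular antagonists of BMPs and activins were not called. The lowest p among the 3 with a symbol was that of CHRDL1, a BMP antagonist (log2 fold change -0.65, SE 0.12, adjusted p = 0.0160). FST (follistatin), which binds activin, showed 1.37 (SE 0.44, adjusted p = 0.0849), with 1.95 to 2.35 in dogs 3 to 5, 0.20 in dog 1 and -0.42 in dog 2. GREM1, the remaining antagonist, stood at -2.39 (SE 0.62, adjusted p = 0.0472, same test). It averaged 23.0 ± 6.15 normalized counts before treatment and 4.47 ± 3.08 after it. FZD1, a WNT receptor and the 1 gene with a symbol among 17 of the WNT side on which BAMBI is also known to act, showed -1.10 (SE 0.30, adjusted p = 0.0564).

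**Figure D3:**
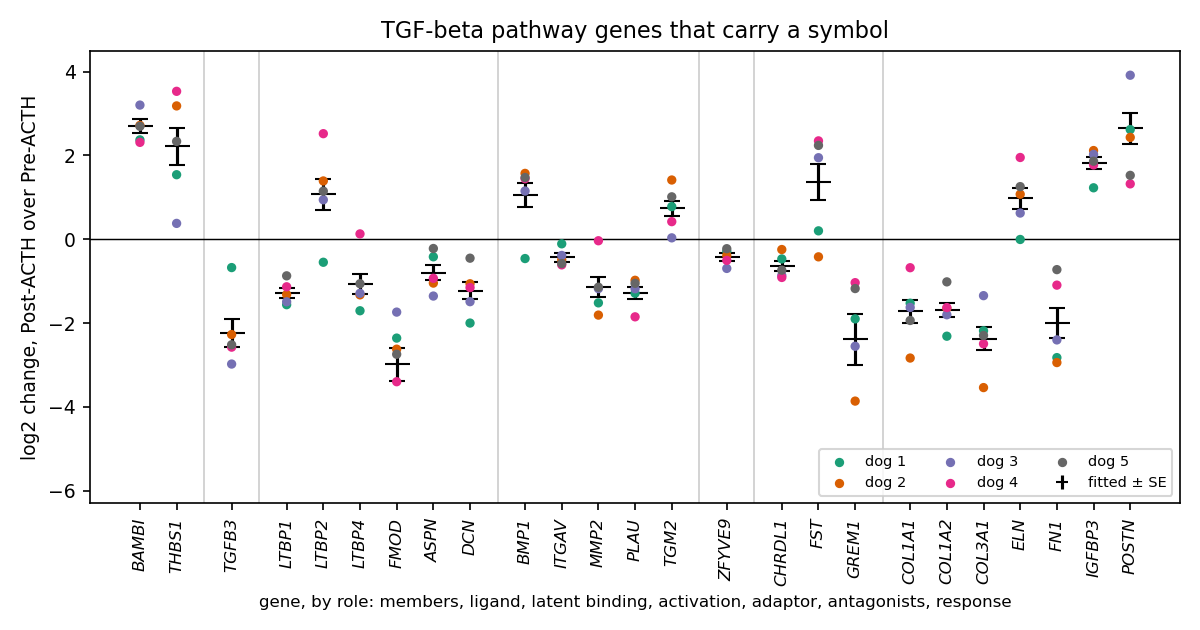
Log2 change of Post-ACTH over Pre-ACTH for BAMBI, THBS1 and the pathway genes with a symbol that are reported here, grouped by role as named under the axis; points are single dogs, and bars give the fitted log2 fold change ± SE. BAMBI and IGFBP3 have closely grouped points above 0, and LTBP1 and PLAU below 0, while the points of THBS1, FST and POSTN lie far apart.

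The genes known to respond to TGF-beta or BMPs split by direction. Of 9 with a symbol, LTBP2 among them, 2 rose, 2 fell and 5 did not pass, against 0.751% higher and 1.22% lower among all tested genes. These shares, too, are set by the selection of genes with a symbol. IGFBP3, a carrier of insulin-like growth factors, averaged 138 ± 22.3 normalized counts before treatment and 499 ± 139 after it, and rose by 1.82 on the log2 scale (SE 0.14, adjusted p = 0.00213 in edgeR's quasi-likelihood test), a call that was lost without dog 2, dog 3 or dog 5 (adjusted p of 0.0110 to 0.0142). Its ratios ran from 1.23 to 2.12 with an SD of 0.35, next to 0.35 for BAMBI. POSTN (periostin), a matrix protein, rose by 2.65 (SE 0.37, adjusted p = 0.00806), on 5.81 to 38.4 normalized counts in Pre-ACTH, and missed the threshold without the replicate block (adjusted p = 0.0535) and without dog 1, dog 2, dog 3 or dog 5 (0.0167 to 0.0379). The fibrillar collagens COL1A2 and COL3A1 fell by 1.68 (SE 0.17, adjusted p = 0.00351) and 2.37 (SE 0.28, adjusted p = 0.00475) on the log2 scale. Both calls were lost without dog 2 or dog 3, and that of COL3A1 also without dog 4 or dog 5 (adjusted p of 0.0112 to 0.0245 over these fits of edgeR).

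Fibroblasts make many of these matrix genes, and 8 of 11 fibroblast and progenitor markers carry a symbol. All 8 had log2 fold changes below 0 with a median of -1.52, 4 of them at FDR under 0.01, against 1.22% of all tested genes. These markers, too, carry a symbol only because the study had found them changed in these samples, so the share is set by the selection. DCN and COL1A1 are also counted among the 24 pathway genes. Of the other cell types, 1 of 2 mast cell markers with a symbol fell at FDR under 0.01 (CPA3, listed at 0 to 1.08 normalized counts in Post-ACTH). The other, MS4A2, missed this threshold at -3.26 on the log2 scale (SE 0.75, adjusted p = 0.0333 in edgeR's quasi-likelihood test). It averaged 14.5 normalized counts in Pre-ACTH and 1.39 in Post-ACTH. The skeletal muscle genes CKM and TTN rose by 3.58 (SE 0.26) and fell by 2.07 (SE 0.31) on the log2 scale. None of 3 mural and 3 macrophage markers passed, and no endothelial, lymphocyte, mesothelial, erythroid or neutrophil marker carries a symbol. The part of these cell types in the changes of BAMBI, THBS1 and the pathway genes was not tested.

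THBS1 is also known to respond to tissue handling and to be carried by platelets. Of 22 immediate early genes only FOS and KLF4 carry a symbol, at 1.75 (SE 0.30, adjusted p = 0.0138) and 0.51 (SE 0.10, adjusted p = 0.0241 in edgeR's quasi-likelihood test) on the log2 scale, and both were higher in 5 of 5 dogs. Of 10 platelet markers only PPBP, a platelet chemokine, carries a symbol, and it averaged 14.3 ± 7.89 normalized counts before treatment and 71.6 ± 59.2 after it. PPBP rose by 2.18 on the log2 scale (SE 0.30, adjusted p = 0.00791), a call that was lost without the replicate block (adjusted p = 0.0305) and when any dog was left out. In dogs 1 to 5, in this order, the log2 ratio of FOS was 0.78, 2.48, 2.02, 0.79 and 2.32. That of KLF4 was 0.14, 0.45, 0.49, 0.81 and 0.64, and that of PPBP was 2.66, 2.69, 1.55, 1.85 and 1.20. KLF4 was highest in dog 4, as was THBS1, while FOS and PPBP were highest in dog 2, where THBS1 was second. KLF4 and FOS were lowest in dog 1 and PPBP in dog 5, whereas THBS1 was lowest in dog 3. The part of tissue handling or platelets in the level of THBS1 was not tested.

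**Figure D4:**
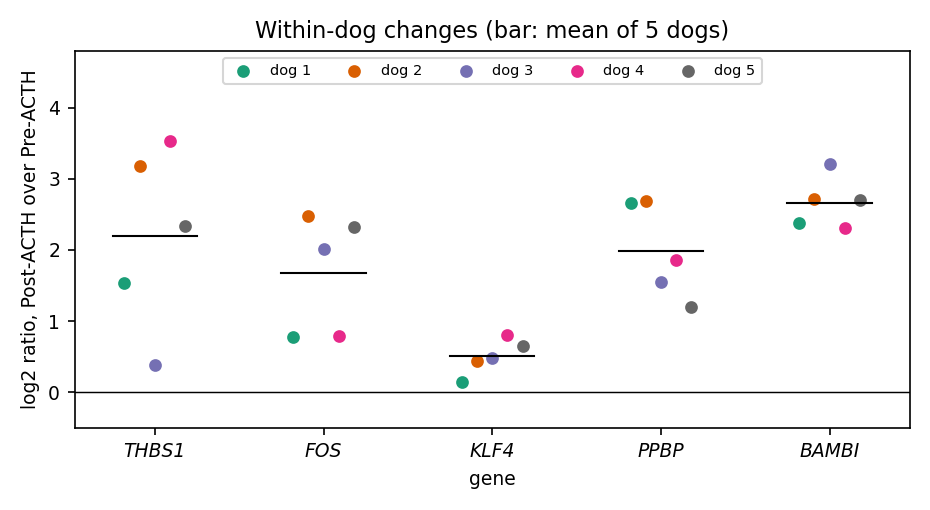
Log2 ratio of Post-ACTH over Pre-ACTH in each dog (points) and their mean (bar) for THBS1, the immediate early genes FOS and KLF4, the platelet gene PPBP and BAMBI. Dog 3 is lowest for THBS1 (0.38) and highest for BAMBI (3.20).

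Of 19 known glucocorticoid response genes, 10 carry a symbol. Of these 10, 2 rose and none fell at FDR under 0.01, against 0.751% and 1.22% of all tested genes. At FDR under 0.05, 5 were higher and 2 lower, against 4.84% and 6.28% of all tested genes. Here, too, a symbol marks a gene that the study had found changed in these samples, so these shares are set by the selection. FKBP5, a chaperone of the glucocorticoid receptor and a classic target of it, rose by 2.21 on the log2 scale (SE 0.29, adjusted p = 0.00633), and GLUL, the glutamine synthetase, by 1.26 (SE 0.19, adjusted p = 0.00953, edgeR's quasi-likelihood test). Both calls were lost without dog 2, dog 4 or dog 5, and that of GLUL also without dog 3. Over all 12 alternative fits, the call of FKBP5 was lost in 3 and that of GLUL in 5. The log2 ratio of FKBP5 was highest in dog 3 (3.68), as was that of BAMBI. Counting error does not separate dog 3 from dog 2 for BAMBI. Those of GLUL and ZBTB16 were also highest in dog 3. Those of TSC22D3 and PDK4 were highest in dog 5, and those of PER1, KLF15 and MT2A in dog 4, where BAMBI was lowest. In dog 3 the Pre-ACTH level of FKBP5 was 352 normalized counts against 1259 to 1548 in the others. Of the thrombospondin family and its receptors, only SDC1 (syndecan 1), a heparan sulfate proteoglycan, carries a symbol among 12 genes other than THBS1, at 1.88 on the log2 scale (SE 0.47, adjusted p = 0.0433), with a value below 0 in dog 1 (-0.23).

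The genes with the most similar pattern were sought by Pearson r of log2 CPM over the 10 samples, among 12273 other genes with at least 1 CPM on average. For BAMBI, 4 of the 5 closest genes with a symbol were KCNQ5, a potassium channel (r = 0.96), EML5 (r = 0.95), the ribosomal protein gene RPL19 (r = 0.94), and SLC2A2, a glucose transporter (r = 0.94). KCNQ5, the closest of all genes, shared the low levels of dog 2 (26.2 and 59.3 normalized counts) and the high ones of dog 4 (108 and 278). Its r with THBS1 was 0.48.

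For THBS1 the closest genes with a symbol were FAM46B (r = 0.98), COL12A1, a fibril-associated collagen (r = 0.97), IGFBP2, a carrier of insulin-like growth factors (r = 0.94), EIF3G, a translation initiation factor subunit (r = 0.93), and GCAT, an enzyme of threonine breakdown (r = 0.93). COL12A1 followed THBS1 dog by dog, with log2 ratios of 1.70, 2.81, 0.33, 2.83 and 1.91 in dogs 1 to 5. Its Pre-ACTH level was 10496 normalized counts in dog 3 and 2974 to 4853 in the other dogs. Dog 3 was also highest for THBS1 in Pre-ACTH, a likeness by which COL12A1 was chosen. These correlations were chosen as the highest of all genes, include the difference between the time points and carry no p.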

How the data were processed

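RNA-seq of VAT covered 5 Beagle dogs at 2 time points. After trimming and alignment to CanFam3.1 by STAR, the authors summed reads over Ensembl genes in featureCounts and deposited these raw counts, not normalized. Versions, annotation release, strand setting and the handling of reads shared between genes are not given in the sources used here. Groups and animals came from the labels. Differential expression was computed from the counts by edgeR 4.0.16 under R 4.3.3 (TMM scaling, quasi-likelihood fit and test, blocked by dog). A gene was tested if any sample held 10 or more reads (13577 genes), with Benjamini-Hochberg adjustment over all of them and FDR under 0.01. The study's methods pair by animal too. Deviations from the group means correlated by 0.0772 to 0.412 between samples of the same dog. In 4 of 5 dogs the Pre-ACTH sample correlated best with the dog's own Post-ACTH sample. In dog 4 this value was 0.0772, against 0.166 with the Post-ACTH sample of another dog, so the pairing of dog 4 rests on the labels. Every pair of libraries differed beyond sampling noise (chi-square per degree of freedom of 17.4 or more). SEs are the size of the log2 fold change over the square root of F. Alternatives were DESeq2 1.42.0, limma-voom (limma 3.58.1), no block, RLE and total-count scaling, other filters, prior counts and thresholds, and leaving out each dog. The scripts were tested on simulated counts.

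BAMBI, THBS1 and the gene lists were chosen with earlier results of these data known. Named were genes of the pathway and thrombospondin lists called at FDR under 0.01, in lists without a call the member with the lowest p (glucocorticoid genes: those called; immediate early genes: up to 3), and the 5 genes with a symbol most like each of BAMBI and THBS1. PPBP, LTBP2, DCN, BMP1, FST and LIPE were added with their values already known. So were ZBTB16, TSC22D3, PDK4, PER1, KLF15, MT2A, GREM1 and MS4A2, which were not followed singly in the flagged results or the alternatives. Symbols came from the identifier and name columns of the study's table of 1190 genes, whose fold changes and p-values were not used. No sequences, coordinates or transcript lengths were used, so levels are not compared between genes. Values of 2 genes that entered the counts are not reported here.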

Additional observations from a re-analysis of the deposited data

Results flagged for a closer look

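In 35 named genes, the Pre-ACTH values, the Post-ACTH values and the log2 ratios of the 5 dogs were each searched for a dog that stood apart, with a gap to the nearest dog of more than 0.710 of the whole range. For normally distributed values chance flags about 1 in 20 of such sets. The levels were searched on the linear scale, where a high value stretches the range, so that share is only a rough guide for them. Of 105 sets 10 were flagged, 9 of them in Pre-ACTH levels, and no excess over chance is read from this count. All levels are in normalized counts.

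THBS1 in dog 3 stood at 7074 in Pre-ACTH, against 1705 to 3061 in the other dogs. In the same library COL12A1 stood high, at 10496, and FKBP5 low, at 352. COL12A1 had been chosen for its likeness to THBS1 over these samples. This library was the smallest of the 10, and its part in these values was not tested.

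Dog 1 stood apart in the Pre-ACTH levels of matrix genes. LTBP1 was at 591 against 331 to 406, LTBP2 at 473 against 66.1 to 170, POSTN at 38.4 against 5.81 to 8.45, and BMP1 at 599.8 against 234 to 292. The log2 ratio of BMP1 in dog 1 was -0.46, against 1.15 to 1.57 in the others.

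CHRDL1 in Pre-ACTH was at 5786 in dog 2 and at 7204 to 7603 in the others. GCAT in Pre-ACTH was at 144 in dog 4 and at 188 to 206 in the others.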

How the results depend on the processing

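The log2 fold change of BAMBI lay between 2.58 and 2.81 and that of THBS1 between 1.87 and 2.66 over all alternatives, fits with no replicate block included (2.65 and 2.20), the outer values coming from leaving out single dogs. The SD of the within-dog log2 ratios of BAMBI was 0.20 to 0.41 when each dog was left out, lowest without dog 3, and that of THBS1 was 0.90 to 1.49. The sex difference of BAMBI was 0.47 to 0.77 when each dog was left out, and that of THBS1 was -2.09 to 0.70, the positive value coming from the fit without dog 3, where 1 female remained and was assumed to vary like the other dogs. Neither sex difference was called under any alternative (adjusted p of 0.616 to 1), and with no replicate block they were 0.82 and -0.76.

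The number of called genes moved most. Over all genes 268 were called, 1180 with DESeq2, 438 with no filter on low counts, 1509 at FDR under 0.05, 262 with no replicate block, and 1 (without dog 2) to 318 when each dog was left out (12, 117 and 23 without dogs 3, 4 and 5). Among the 24 pathway genes with a symbol, 2 higher and 6 lower became 8 and 16 with DESeq2, 5 and 16 at FDR under 0.05 and 1 and 9 with no replicate block, and ranged from 0 to 2 higher and 0 to 6 lower when each dog was left out (without dog 5, 0 and 2). The cause of these differences was not tested. The fits that leave out a dog also hold fewer dogs. For the 33 other named genes, no direction turned in 396 values, 52 values lost the call and 35 gained it. With no replicate block, the calls of KCNQ5, POSTN and PPBP were lost and those of CHRDL1, COL12A1, GCAT and IGFBP2 gained. Of the 5 genes most like each by Pearson r, Spearman rho shared 1 for BAMBI and 3 for THBS1. Precision for BAMBI is limited by 8 reads in the Pre-ACTH library of dog 2.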
